A study of Mus musculus with 6 samples.

Results

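The genes described here are the chains of the mouse major histocompatibility complex (MHC) class I molecules, classical and nonclassical. They were chosen by symbol: H2-K1, H2-D1, H2-Q4, H2-Q6, H2-Q7, H2-T22, H2-T23, H2-M2, H2-M3 and B2m, 10 of the 54446 entries in the table of expression values. Their RNA was measured by sequencing in macrophages grown from the bone marrow of C57BL/6 mice 6 weeks old. The cells had been given PBS, the buffer control, or KN93, a compound that blocks kinases activated by calmodulin, CaMKII among them, at 5 µM or 10 µM, with 2 samples in each of the 3 groups. The labels name no genotype and no other agent for any group, and the length of treatment is not given. Whether samples of a group came from different animals or cultures is not stated, so p-values speak of sample-to-sample spread alone, and that spread may be technical.

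A class I molecule is a heavy chain held together with the light chain beta-2 microglobulin, which B2m encodes, and it carries a short peptide to the cell surface for inspection by T cells and natural killer cells. The classical heavy chains H2-K and H2-D are made by nearly all nucleated cells and present peptides of cytosolic proteins to CD8 T cells. The nonclassical chains are encoded in the Q, T and M regions that follow in the same gene complex. H2-Q6 and H2-Q7 encode forms of Qa-2, H2-T23 encodes Qa-1, which presents signal-sequence peptides to the natural killer receptor CD94/NKG2A, H2-T22 encodes a chain recognised by some gamma delta T cells, and H2-M3 presents peptides that begin with formylmethionine. Class I promoters are known to hold a site for NF-κB, a site for interferon regulatory factors (IRF) beside it, and a downstream module bound by RFX, CREB and NF-Y that recruits the coactivator NLRC5.

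On GRCm38 the 9 heavy chain genes lie on chromosome 17 and B2m lies on chromosome 2, at 122147686 to 122153083. H2-K1 lies at 33996017 to 34000347, H2-D1 at 35262730 to 35267499, H2-Q4 at 35379617 to 35385290, H2-Q6 at 35424850 to 35430055 and H2-Q7 at 35439155 to 35443773. Further along are H2-T23 at 36029773 to 36032855, H2-T22 at 36037128 to 36042747, H2-M3 at 37270220 to 37274484 and H2-M2 at 37480851 to 37483552. All 10 are annotated as protein coding. The promoter windows of 5 of them are shown as examples of how alike and unlike these genes are upstream, each 300 bases from 250 before to 50 after a RefSeq transcript start (GRCm38.p6), written in the direction of the gene. They are the classical H2-K1, the neighbouring pair H2-Q6 and H2-Q7 that rose most at 10 µM, H2-M2, whose order over the doses was its own, and H2-T23, which holds neither motif that the capitals mark. Capitals mark matches to an IRF motif (GAANNGAAA) or to the NF-κB consensus, on either strand.
H2-K1, chr17:34000298-34000597, minus strand: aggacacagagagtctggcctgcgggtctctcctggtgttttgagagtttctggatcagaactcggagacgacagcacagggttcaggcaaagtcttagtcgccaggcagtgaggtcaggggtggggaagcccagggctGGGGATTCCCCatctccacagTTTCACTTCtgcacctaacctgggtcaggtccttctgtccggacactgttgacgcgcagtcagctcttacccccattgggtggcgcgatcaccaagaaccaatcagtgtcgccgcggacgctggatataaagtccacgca
H2-Q6, chr17:35424600-35424899, plus strand: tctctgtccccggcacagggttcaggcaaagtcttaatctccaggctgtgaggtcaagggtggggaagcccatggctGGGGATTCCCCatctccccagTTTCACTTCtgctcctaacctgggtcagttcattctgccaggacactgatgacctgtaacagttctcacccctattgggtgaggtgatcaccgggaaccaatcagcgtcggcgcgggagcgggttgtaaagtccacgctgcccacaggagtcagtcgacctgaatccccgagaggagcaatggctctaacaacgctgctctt
H2-Q7, chr17:35438905-35439204, plus strand: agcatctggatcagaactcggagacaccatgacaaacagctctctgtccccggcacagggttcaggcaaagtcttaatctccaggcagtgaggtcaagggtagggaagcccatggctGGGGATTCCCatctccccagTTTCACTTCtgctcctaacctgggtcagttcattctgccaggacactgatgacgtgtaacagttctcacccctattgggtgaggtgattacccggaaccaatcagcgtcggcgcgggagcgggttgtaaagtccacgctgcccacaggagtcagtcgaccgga
H2-M2, chr17:37483505-37483804, minus strand: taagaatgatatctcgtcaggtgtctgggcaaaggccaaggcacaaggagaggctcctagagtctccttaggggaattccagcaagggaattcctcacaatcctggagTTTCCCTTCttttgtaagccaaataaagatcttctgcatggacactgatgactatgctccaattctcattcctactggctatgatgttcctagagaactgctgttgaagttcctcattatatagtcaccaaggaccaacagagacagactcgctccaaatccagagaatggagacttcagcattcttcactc
H2-T23, chr17:36032652-36032951, minus strand: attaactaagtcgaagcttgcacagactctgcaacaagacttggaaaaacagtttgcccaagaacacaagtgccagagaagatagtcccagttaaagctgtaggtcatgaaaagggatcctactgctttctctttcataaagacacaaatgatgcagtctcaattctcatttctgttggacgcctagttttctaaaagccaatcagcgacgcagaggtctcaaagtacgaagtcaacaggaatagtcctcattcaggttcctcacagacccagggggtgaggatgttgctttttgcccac

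The H2-K1, H2-Q6 and H2-Q7 windows shared a layout, an NF-κB match followed by an IRF match. From the first base of the NF-κB match to that of the IRF match the distance was 21 bases in H2-K1, H2-D1, H2-Q4 and H2-Q6, 20 in H2-Q7 and 25 in H2-M3. A match to GAANNGAAA, the only IRF spelling searched, was found in 7 of the 10 windows. Of all 32851 promoter windows of this length, 7.52% had it. An NF-κB match was found in 8 of 10, against 5.8% of all windows. H2-M2 had the IRF match and no NF-κB match, H2-T22 and B2m had the NF-κB match and no IRF match, and H2-T23 had neither. The missing IRF matches depend on the spelling chosen. Sequences close to it that were not counted stand in these windows, tttcactttc in H2-T22, gaaactgaaa in B2m and tttctctttc in H2-T23. How often such sequences occur in all windows was not tested. TGACG, the core of sites for CREB-type factors, was found on either strand in 8 of 10 windows (20.8% of all windows) and CCAAT, the NF-Y motif, in 10 of 10 (37.4%). Matches to different motifs did not overlap, except that the NF-κB match of H2-M3 shares bases with a CCAAT match, and adjacent NF-κB matches overlap each other. A match describes letters in the window and is no evidence of binding, and these genes are related by descent, so their matches are not independent.

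**Figure D1:**
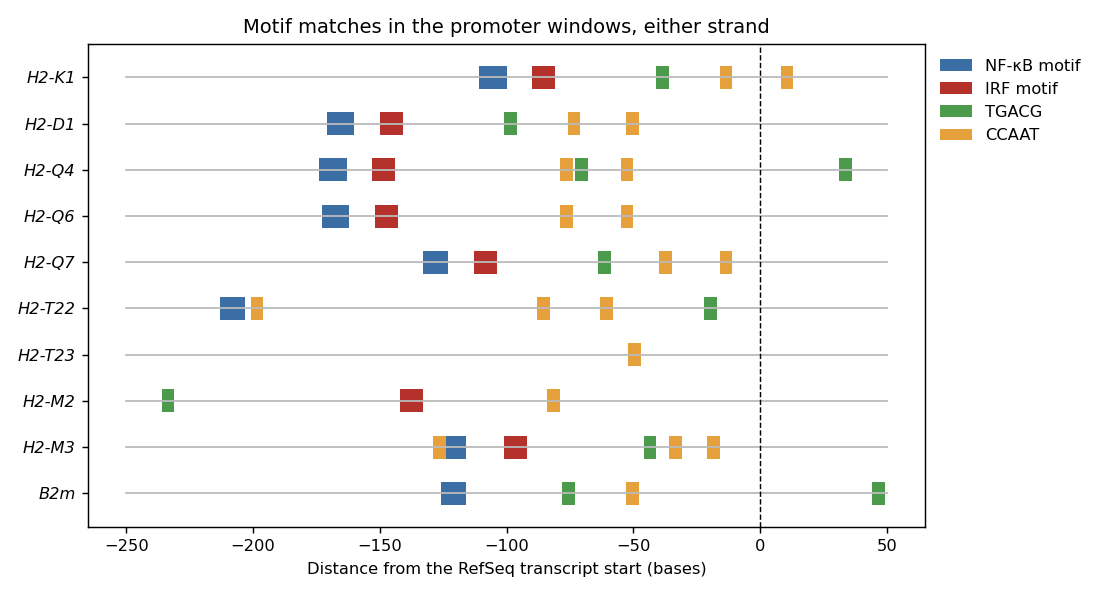
Positions of motif matches in the promoter windows of the 10 class I chain genes, as distance in bases from the RefSeq transcript start (x axis), 1 gene per line, with bars spanning each match. In 6 genes the NF-κB match stands before the IRF match, 20 to 25 bases apart from first base to first base. Of the motif spellings searched, H2-T23 has the CCAAT match alone.

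The values are FPKM, fragments per kilobase of gene per 1000000 fragments. Levels of different genes set side by side in FPKM depend on the annotated exon lengths, such as 860 bases for B2m, 2085 for H2-Q6 and 4265 for H2-Q7. The steps of the low values implied library totals between 24.09 and 28.37, in units of 1000000 fragments. The fragments recovered over genes summed to between 25.97 and 30.7 in the same units, above the implied total in every sample. The reason was not tested. Tests used limma on log2(FPKM + 1), a scale that understates the change of low genes, with Benjamini-Hochberg adjustment over the 12722 genes that reached 1 FPKM in 2 or more samples. Genes with an adjusted p below 0.05 are said to pass or to be called, and all 10 class I chains passed the filter on low values. Markers of the labelled cell type were present, with Csf1r at 657 and 642 FPKM in the PBS samples and at 327 and 363 in the 10 µM samples. Of 9 macrophage markers Lyz2 was highest, at 15399.7 and 15052 FPKM with PBS and 5849 and 6568 at 10 µM. The summed level of the 9, most of it Lyz2, was 18326 to 18835 FPKM with PBS, 14385 to 14862 at 5 µM and 8325 to 9171 at 10 µM. The summed level of 8 stromal and fibroblast markers was 1758 to 1816, 482 to 579.6 and 321 to 342 FPKM in the same order, and that of 7 neutrophil markers 105 to 106, 35.6 to 40.6 and 5.01 to 7.25. Of the macrophage markers 1 rose and 7 fell at 10 µM against PBS, and 5 stromal and 4 neutrophil markers fell. The macrophage marker that rose was Cd68, at 1396 and 1511 FPKM at 10 µM and 842 and 861 with PBS. The part of these shifts in the results was not tested. The 8 T and natural killer cell markers summed to at most 0.617 FPKM in a sample and the 6 dendritic cell markers to at most 0.483, and Cd79b was the only 1 of 5 B cell markers that reached 1 FPKM. In such bulk RNA a shift in the cells present and a shift in RNA per cell cannot be told apart.

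In PBS-treated macrophages the class I chains spanned a wide range of levels. B2m stood at 4024 and 3883 FPKM, rank 5 of all entries by its mean. The classical chains H2-D1 (1499.6 and 1472 FPKM) and H2-K1 (1308 and 1301 FPKM) followed at ranks 19 and 21. H2-T23 came next with 256 and 243 FPKM, and then H2-Q4, H2-T22, H2-M3, H2-Q6 and H2-Q7 with means of 83, 63.2, 44.5, 29.8 and 22 FPKM. H2-M2 was lowest at 4.07 and 3.19 FPKM, from 170 and 140 recovered fragments, while each other chain rested on at least 1689 in each PBS sample. No 2 neighbours in this order, which rests on the annotated exon lengths, overlapped in their samples, in any of the 3 groups. At 10 µM the order differed in the middle, where H2-Q6 stood above both H2-T22 and H2-M3, and H2-Q7 above H2-M3.

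**Figure D2:**
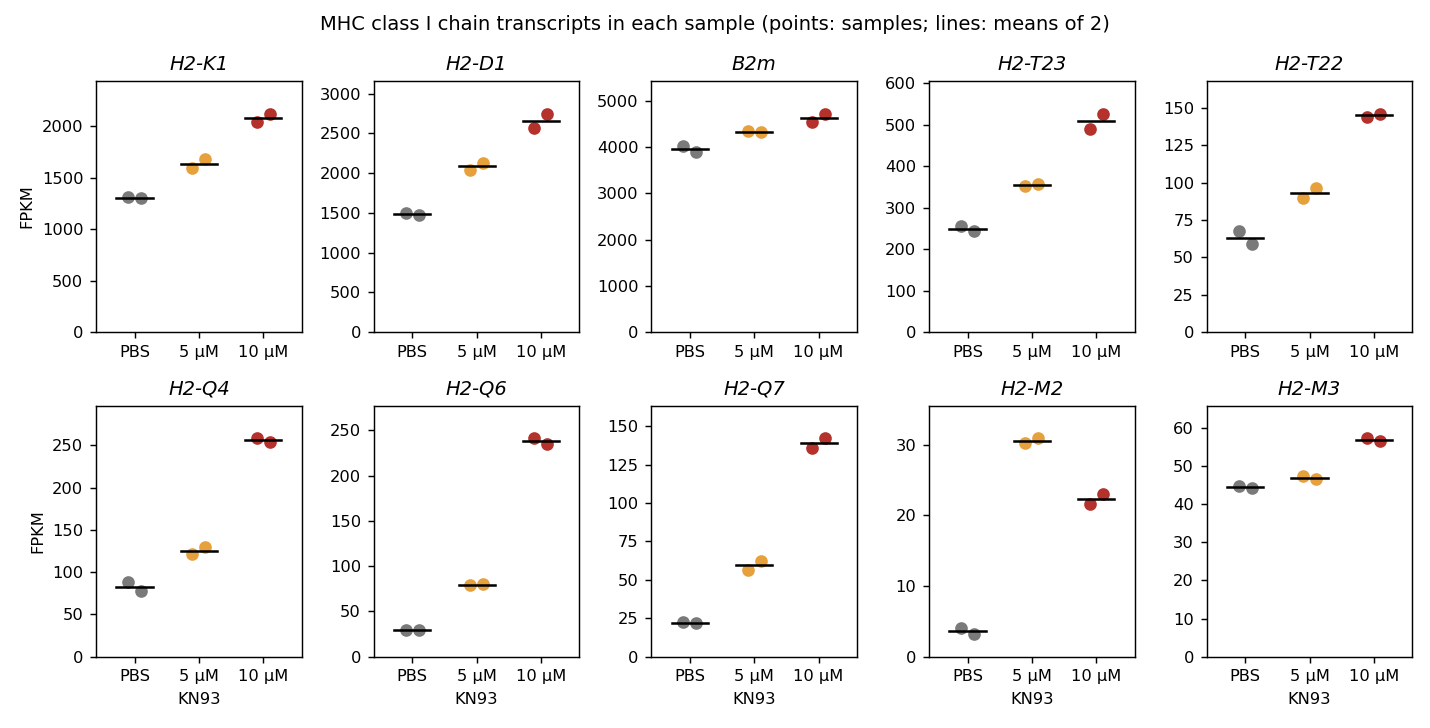
FPKM (y axis, linear from 0, a scale of its own in each panel) of the 10 class I chains in the 2 samples each of PBS, 5 µM and 10 µM KN93 (x axis), with points for samples and lines for means. Of the 10 genes 9 are lowest with PBS and highest at 10 µM in every sample, whereas H2-M2 is highest at 5 µM, at 30.2 and 30.9 FPKM.

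The first comparison asked which class I transcripts differed between 10 µM KN93 and PBS. All 10 rose (limma, adjusted p under 0.05), where 28.5% of the 12722 genes tested rose and 50.5% were called in either direction. The median change of the 10 was 1.10 on the log2 scale, beside 0.05 over all genes tested. In all 10 the treated and PBS samples did not overlap, which held with the treated samples higher for 44.2% of the genes tested. The sizes ran from 7.97-fold for H2-Q6 to 1.17-fold for B2m, as ratios of mean FPKM.

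The Qa-2 genes of the Q region rose most. H2-Q6, one of the Qa-2 genes, was at 241 and 235 FPKM at 10 µM and 30.1 and 29.6 with PBS, a log2 change of 2.95 ± 0.04 (standard error, limma adjusted p = 5.5e-06), rank 13 among the rises of all genes tested. Its neighbour H2-Q7 was at 136 and 142 FPKM at 10 µM and 22.3 and 21.8 with PBS (log2 change 2.6 ± 0.06, limma adjusted p = 1.29e-05). H2-Q4, a further nonclassical Q gene, was at 258 and 254 FPKM at 10 µM, against 87.8 and 78.2 with PBS, with a log2 change of 1.61 ± 0.07 (limma adjusted p = 5.14e-05). In each of these 3 genes both treated samples lay far above both PBS samples.

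Of the T region genes, H2-T22 was at 144 and 146 FPKM at 10 µM and 67.3 and 59.1 with PBS, a log2 change of 1.19 ± 0.07 (limma adjusted p = 0.000145). H2-T23, the Qa-1 gene, was at 489 and 526 FPKM at 10 µM and 256 and 243 with PBS (log2 change 1.02 ± 0.06, limma adjusted p = 0.000119). These changes were smaller than those of the Q genes and larger than those of the classical chains, an order read from the point estimates, since genes were not tested against each other. H2-D1 was at 2575 and 2748 FPKM at 10 µM and 1499.6 and 1472 with PBS, a log2 change of 0.84 ± 0.07 (limma adjusted p = 0.000368). H2-K1 was at 2040.4 and 2120.2 FPKM at 10 µM and 1308 and 1301 with PBS, a log2 change of 0.67 ± 0.06 (limma adjusted p = 0.000619). In FPKM the gain was largest for these classical chains, with means of 2661 at 10 µM and 1486 with PBS for H2-D1, whereas H2-Q6 had means of 238 and 29.8.

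The M region genes stood far apart in their changes. H2-M2, a nonclassical gene whose role is less known, was at 21.6 and 23.1 FPKM at 10 µM and 4.07 and 3.19 with PBS, a log2 change of 2.34 ± 0.10 (limma adjusted p = 4.56e-05). H2-M3 was at 57.2 and 56.6 FPKM at 10 µM and 44.8 and 44.3 with PBS, a log2 change of 0.35 ± 0.04 (limma adjusted p = 0.0013). B2m, the common light chain, was at 4539.9 and 4714 FPKM at 10 µM and 4024 and 3883 with PBS. Its log2 change of 0.23 ± 0.07 was the smallest of the 10 and passed narrowly (limma adjusted p = 0.0475, range over the alternatives 0.0118 to 0.617). The B2m call was lost when any 1 of the 6 samples was left out, with adjusted p of 0.147 and 0.221 without PBS replicates 1 and 2, 0.0703 and 0.0715 without 5 µM replicates 1 and 2, and 0.0657 and 0.124 without 10 µM replicates 1 and 2. It was also lost with median-of-ratios scaling (log2 change 0.16, adjusted p = 0.14) and with quantile normalization (0.08, adjusted p = 0.405). Without the expression filter (adjusted p = 0.617), with a pseudocount of 0.1 FPKM, with only the groups compared and with a replicate block the B2m call was lost too. It failed in 12 of 16 settings, the main fit being among the 16. The other 9 rises at 10 µM passed under every alternative run.

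**Figure D3:**
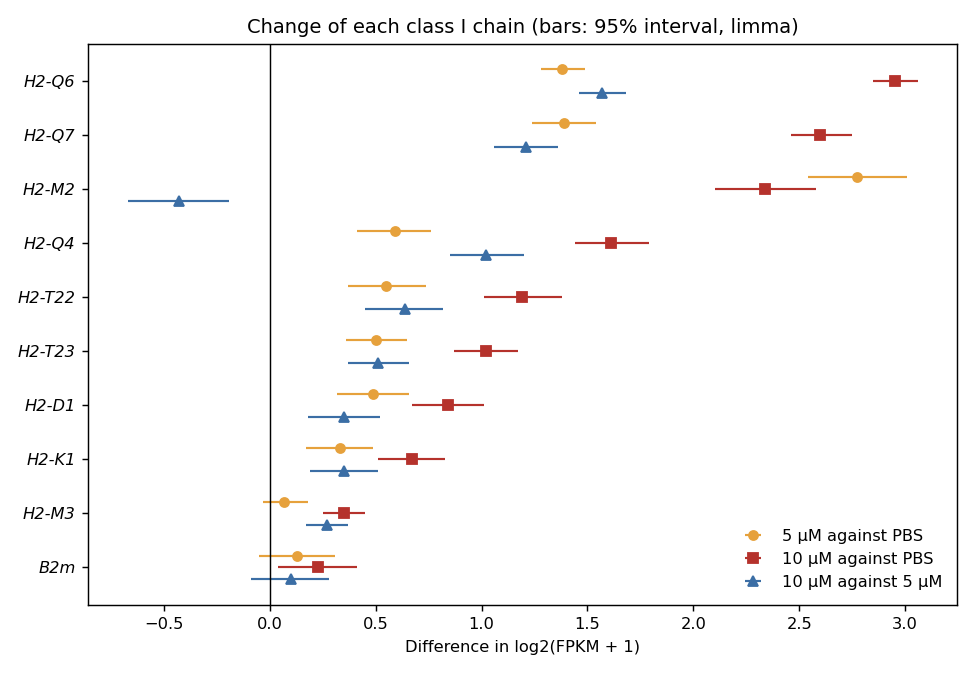
Difference in log2(FPKM + 1) of each class I chain (x axis) for each KN93 dose over PBS and for the step between doses, with 95% intervals from limma, ordered by the change at 10 µM. H2-Q6 leads at 2.95, B2m ends the order at 0.23, and H2-M2 alone has a value below 0 between the doses, at -0.43.

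At 5 µM the comparison with PBS gave 8 rises and 0 falls among the 10 class I chains, where 30.5% of the 12722 genes tested were called, 15.1% as rises and 15.4% as falls. In all 10 the 5 µM samples lay above the PBS samples, as in 37.0% of the genes tested. This comparison shares its PBS samples with the comparison above. The median change of the 10 was 0.53 on the log2 scale, beside 0.01 over all genes tested. H2-M2 had the largest, at 30.2 and 30.9 FPKM at 5 µM and 4.07 and 3.19 with PBS, 8.41-fold in mean FPKM and a log2 change of 2.77 ± 0.10 (limma adjusted p = 0.000148). It was rank 2 among the rises of all genes tested. H2-Q7 was at 56.7 and 62.5 FPKM at 5 µM, against 22.3 and 21.8 with PBS (log2 change 1.39 ± 0.06, limma adjusted p = 0.000224), and H2-Q6 at 78.9 and 80.1, against 30.1 and 29.6 (1.38 ± 0.04, limma adjusted p = 0.000148). Both Qa-2 genes had risen by a similar ratio, 2.7-fold for H2-Q7 and 2.66-fold for H2-Q6 in mean FPKM.

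The other 5 genes called at 5 µM had log2 changes between 0.33 and 0.59. H2-Q4 was at 121 and 129.7 FPKM at 5 µM, H2-T22 at 89.6 and 96.4, H2-T23 at 352 and 358, H2-D1 at 2041 and 2134, and H2-K1 at 1592 and 1679, each above both PBS samples. The H2-K1 call (log2 change 0.33 ± 0.06, limma adjusted p = 0.0156, range over the alternatives 0.00351 to 0.221) was lost without PBS replicate 1 (adjusted p = 0.0892), PBS replicate 2 (0.0864) or 5 µM replicate 2 (0.0793). With quantile normalization or no expression filter neither H2-K1 nor H2-D1 passed at 5 µM, with adjusted p of 0.0768 and 0.221 for H2-K1 and 0.0626 and 0.129 for H2-D1 (range over its alternatives 0.000439 to 0.129). Quantile normalization also brought their log2 changes to 0.14 and 0.17. H2-M3 was at 47.3 and 46.5 FPKM at 5 µM and 44.8 and 44.3 with PBS, and did not pass (log2 change 0.07, 95% interval -0.03 to 0.18, limma adjusted p = 0.228). B2m was at 4335 and 4322 FPKM at 5 µM and 4024 and 3883 with PBS, and did not pass (log2 change 0.13, 95% interval -0.05 to 0.31, limma adjusted p = 0.239).

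Between the doses, 8 of the 10 class I chains were higher at 10 µM and 1 was lower, where 19.9% of the 12722 genes tested were called, 11.4% as higher and 8.5% as lower. Without overlap between the groups, 9 were higher at 10 µM, as were 37.7% of the genes tested, and 1 was lower, as were 26% of them. Both groups of samples also enter the comparisons above. The median change of the 10 was 0.43, beside 0.04 over all genes tested. H2-Q6 was at 241 and 235 FPKM at 10 µM and 78.9 and 80.1 at 5 µM, again the largest rise (log2 change 1.57 ± 0.04, limma adjusted p = 0.00028). H2-Q7 (log2 change 1.21 ± 0.06, limma adjusted p = 0.000652) and H2-Q4 (1.02 ± 0.07, limma adjusted p = 0.00142) followed. The H2-Q4 step between the doses was 2.04-fold in mean FPKM, against 1.51-fold for 5 µM over PBS.

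H2-M2 was lower at the higher dose, at 21.6 and 23.1 FPKM at 10 µM and 30.2 and 30.9 at 5 µM. The fall was 0.732-fold in mean FPKM (log2 change -0.43 ± 0.10, limma adjusted p = 0.0313, range over the alternatives 0.00368 to 0.131). This call was lost without 5 µM replicate 1 (adjusted p = 0.106), 5 µM replicate 2 (0.131), 10 µM replicate 1 (0.118) or 10 µM replicate 2 (0.0817), and, with all samples kept, without the expression filter (0.101). The test of whether the step between the doses differed from the step between PBS and 5 µM was passed by H2-M2 alone of the 10 (difference -3.21 ± 0.17 on the log2 scale, limma adjusted p = 0.0046, range over the alternatives 0.000109 to 0.0784), where 5.36% of the genes tested passed, 2.88% with a positive and 2.48% with a negative difference. That difference held its size without 5 µM replicate 1 (-3.24, adjusted p = 0.0533) or 5 µM replicate 2 (-3.17, adjusted p = 0.0784), although the call was lost. With voom on recovered fragments H2-Q4 passed this test as well (difference 0.47, adjusted p = 0.042, range over the alternatives 0.042 to 0.353).

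The classical chains and H2-M3 rose modestly between the doses, and those calls did not hold when certain single samples were left out. H2-K1 (log2 change 0.35 ± 0.06, limma adjusted p = 0.0188, range over the alternatives 0.00221 to 0.242) lost its call without PBS replicate 1 (adjusted p = 0.0503), 5 µM replicate 1 (0.089), 5 µM replicate 2 (0.0639) or 10 µM replicate 2 (0.0644). H2-D1 (log2 change 0.35 ± 0.07, limma adjusted p = 0.023, range 0.00262 to 0.307) lost it without PBS replicate 1 (0.0583), PBS replicate 2 (0.0575), 5 µM replicate 1 (0.101), 5 µM replicate 2 (0.078) or 10 µM replicate 2 (0.0731). Without the filter H2-K1 (0.242) and H2-D1 (0.307) lost it with all samples kept, as they did in a fit of only the groups compared (0.0517 and 0.0599). H2-M3 (log2 change 0.27 ± 0.04, limma adjusted p = 0.0103, range 0.00612 to 0.0702) lost it without 5 µM replicate 1 (0.0534) or 5 µM replicate 2 (0.0702). H2-T22 and H2-T23 rose by 0.64 ± 0.07 and 0.51 ± 0.06 and kept their calls under every alternative run. B2m did not pass (log2 change 0.10, 95% interval -0.09 to 0.28, limma adjusted p = 0.4). In 9 of the 10 genes every sample was in the order PBS below 5 µM below 10 µM, an order seen in 18.8% of the genes tested.

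The makeup of the heavy chain RNA shifted with dose. The 9 heavy chains summed to 3320 and 3253 FPKM in the PBS samples, to 4408 and 4617 in the 5 µM samples, and to 5961 and 6251 in the 10 µM samples. The classical H2-K1 and H2-D1 together held 84.6% and 85.3% of that sum in the PBS samples, 82.4% and 82.6% in the 5 µM samples, and 77.4% and 77.9% in the 10 µM samples. H2-Q4, H2-Q6 and H2-Q7 together held 4.22% and 3.98%, 5.82% and 5.9%, and 10.64% and 10.09% in the same order. The 3 groups did not overlap in these sums and shares. With 2 against 2 samples an exact two-sided permutation test cannot go below p = 0.333, so no test is given for them. B2m over the summed heavy chains gave a ratio of 1.21 and 1.19 in the PBS samples, 0.983 and 0.936 in the 5 µM samples, and 0.762 and 0.754 in the 10 µM samples. The ratio fell with dose. Whether it lay above or below 1 rests on the annotated exon lengths, such as 860 bases for B2m and 2938 for H2-K1. By recovered fragments B2m was below H2-K1 alone, and below H2-D1 alone, in each PBS sample. In FPKM H2-Q6 exceeded H2-Q7 by a ratio of 1.35 and 1.36 in the PBS samples, 1.39 and 1.28 in the 5 µM samples, and 1.76 and 1.66 in the 10 µM samples. By recovered fragments H2-Q6 was below H2-Q7 in every sample. The order of this pair therefore rests on the annotated exon lengths, 2085 bases for H2-Q6 and 4265 for H2-Q7. Ratios of FPKM describe transcripts per length and say nothing of protein. Over the 9 heavy chains the log2 level with PBS and the log2 change at 10 µM had a Pearson correlation of -0.663 and a Spearman correlation of -0.65 (-0.612 and -0.571 over the 8 without H2-M2), a description over related genes measured in the same libraries, in which the level with PBS enters both quantities.

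**Figure D4:**
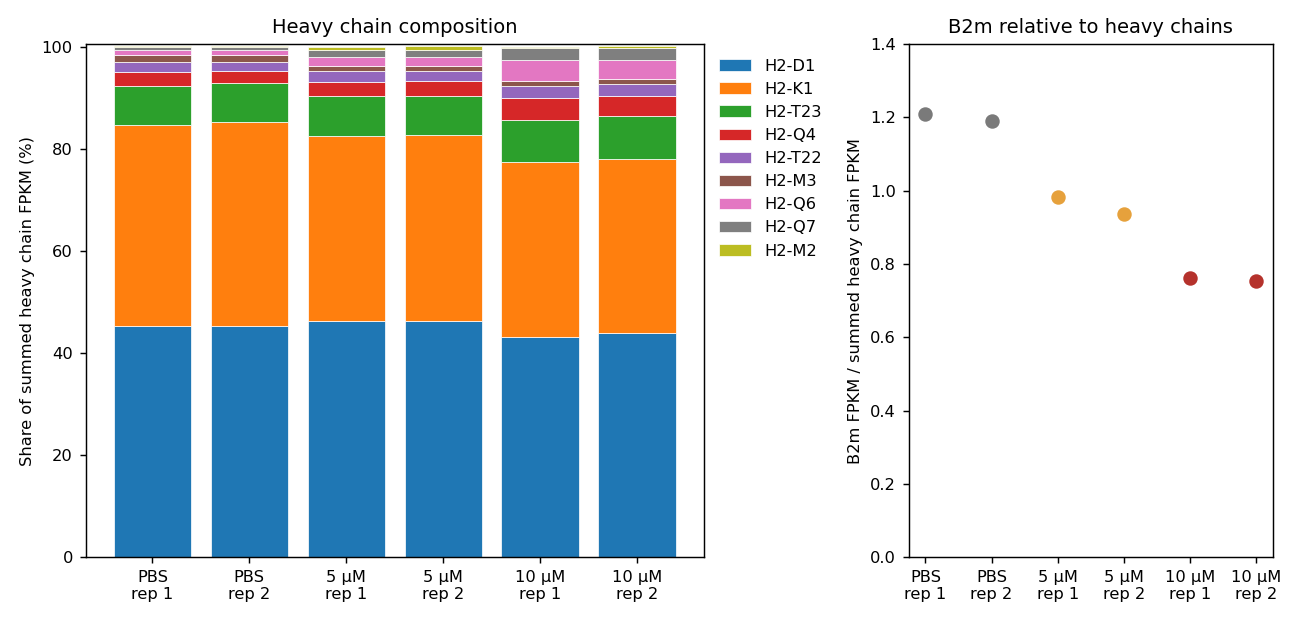
Left, the share of the summed heavy chain FPKM held by each of the 9 heavy chain genes (y axis, percent) in each of the 6 samples, and right, the ratio of B2m FPKM to that sum (y axis from 0) in the same samples. The classical genes fill 84.6% and 85.3% with PBS and 77.4% and 77.9% at 10 µM, and the B2m ratio is 1.21 and 1.19 with PBS and 0.762 and 0.754 at 10 µM.

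Because these genes are similar, an aligner can place fragments of one on another, and the handling of such fragments is not known here. Among the longest coding sequences annotated, H2-Q6 and H2-Q7 were identical at 93.1% of aligned positions, H2-K1 and H2-D1 at 88.3%, and H2-M2 matched no other chain at more than 69.6%. Of the distinct 100-base windows in the annotated transcripts of a gene, 13% of H2-Q6 and 12% of H2-Q7 occurred in transcripts of another gene, most often H2-Q7 (8.4%) and H2-Q10 (5.6%). H2-T22 shared 31.5%, of which the antisense gene A930015D03Rik held 24% and the other chains described here 0.8%. H2-Q4 shared 14.1%, with 11.8% in the antisense gene Gm11131 and 1.2% in the other chains described here. H2-D1 shared 3.6%, H2-T23 3.2% and H2-K1 1%, while H2-M2, H2-M3 and B2m shared none. The read length is not known, and with 50-base windows the shares were 53.5% for H2-T22, 36.4% for H2-Q4, 35% for H2-Q6, 26.5% for H2-Q7, 14.5% for H2-T23, 12.8% for H2-D1, 9.6% for H2-K1, 1.6% for H2-M2, 0.6% for H2-M3 and 0% for B2m. Of the 50-base windows of H2-T22, 31.2% occurred in H2-T10, a class I polymorphic pseudogene that is not a member. H2-T10 was at 13.5 and 12.1 FPKM at 10 µM and 4.41 and 4.16 with PBS. The values of the genes with shared windows are uncertain. The shares do not bound the error, which also depends on the levels of the genes that share the windows. The use of strand is also not given, and 3 genes on the opposite strand overlap a member. Gm11131, antisense to H2-Q4 over 676 bases, was at 13.9 and 12.3 FPKM at 10 µM and 5.39 and 5.43 with PBS. A930015D03Rik, antisense to H2-T22 and H2-T23, was at 1.04 and 1.01 FPKM at 10 µM and 0.569 and 0.794 with PBS, and Patl2, whose span holds all of B2m, did not exceed 0.261 FPKM in any sample.

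Beyond the 10 genes, 33 of a list of 38 other class I and class I-like genes were in the table and 11 of them were tested, the rest lying under the filter. At 10 µM 6 of the 11 rose and 2 fell, with a median of 0.45, and at 5 µM 4 rose and 2 fell. Over all genes tested 28.5% rose and 22% fell at 10 µM, and 15.1% rose and 15.4% fell at 5 µM, and these shares are the background for the counts of every list that follows. H2-Q5, a polymorphic pseudogene between H2-Q4 and H2-Q6, was at 48.4 and 51.1 FPKM at 10 µM and 11.3 and 11.3 with PBS (log2 change 2.05 ± 0.05, limma adjusted p = 1.29e-05). Mill2, an MHC class I-like gene outside the complex, was at 7.15 and 7.08 FPKM at 10 µM and 1.9 and 1.54 with PBS (log2 change 1.58, limma adjusted p = 0.000151). The class I-like genes that fell were Hfe, whose product regulates iron uptake with B2m as its partner, and Fcgrt, which encodes the neonatal Fc receptor heavy chain. Hfe averaged 10.7 ± 0.439 FPKM at 10 µM and 32.3 ± 0.124 with PBS (SD, n = 2 each), a log2 change of -1.51 (limma, fitted across all genes, adjusted p = 4.6e-05). Fcgrt was at 24.6 and 26.2 FPKM at 10 µM and 67 and 66 with PBS (log2 change -1.36, limma adjusted p = 3.17e-05). Genes for heavy chains that pair with B2m moved in both directions in the same samples.

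Of 17 genes of peptide loading and the immunoproteasome, all tested, 12 rose and 3 fell at 10 µM (median 0.46) and 7 rose and 3 fell at 5 µM (median 0.17), where 28.5% and 15.1% of all genes tested rose. Tap1 and Tap2 encode the transporter that brings peptides into the endoplasmic reticulum. Tap1 was at 94.1 and 95.1 FPKM at 10 µM and 50.5 and 45.1 with PBS (log2 change 0.97, limma adjusted p = 0.00016), and Tap2 at 44.9 and 48.1 at 10 µM and 27.5 and 26.9 with PBS (0.75, limma adjusted p = 0.000274). Tapbp, which encodes the loading factor tapasin, was at 541 and 559.8 FPKM at 10 µM and 363 and 347 with PBS (log2 change 0.63, limma adjusted p = 0.000399). Its relative Tapbpl had the largest change of the list, at 43.3 and 44.3 FPKM at 10 µM and 20.1 and 20.1 with PBS (log2 change 1.09, limma adjusted p = 5.14e-05). The 3 genes that fell at both doses were Pdia3 (log2 change -0.33 at 10 µM), Ganab (-0.58) and Uggt1 (-0.45).

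Of 17 transactivators and enhancer-binding factors, 6 rose and 3 fell at 10 µM, and 1 rose and 3 fell at 5 µM, with medians of 0.07 and -0.05. In either direction 9 and 4 of the 17 were called, where 50.5% and 30.5% of all genes tested were, so the counts are near or under the background. Nlrc5, the class I coactivator, was at 18.3 and 15.7 FPKM in the PBS samples, 15.6 and 16.3 in the 5 µM samples, and 25.3 and 21 in the 10 µM samples. It rose at 10 µM (log2 change 0.42, limma adjusted p = 0.0206) and did not pass at 5 µM (-0.08, limma adjusted p = 0.623). Ciita, the class II coactivator, was low, at 1.94 and 1.5 FPKM at 10 µM and 0.172 and 0.189 with PBS, and had the largest change of the list (1.2, limma adjusted p = 0.000711). Irf1 was at 36.9 and 35.1 FPKM at 10 µM and 33.7 and 31.9 with PBS and did not pass (limma adjusted p = 0.0957), nor did Rfx5 (limma adjusted p = 0.659). At 5 µM, where 8 class I chains rose, the samples of Nlrc5 overlapped with those of PBS, and Irf1, at 29 and 30.3 FPKM, did not pass (-0.14, limma adjusted p = 0.101).

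Of 24 type I interferon-stimulated genes 24 rose and 0 fell at 10 µM (median 0.74), and 8 rose and 0 fell at 5 µM (median 0.08), where 28.5% and 15.1% of all genes tested rose. Of 11 tested interferon-gamma response genes 11 rose at 10 µM (median 0.85), and 1 rose and 1 fell at 5 µM (median -0.13). At 5 µM the median of the class I chains was 0.53. The difference between these lists and the class I chains was not tested. Rsad2, which encodes the antiviral protein viperin, was at 377 and 331 FPKM at 10 µM and 47 and 38.1 with PBS (log2 change 3.03, limma adjusted p = 3.78e-05). Of 9 tested class II genes 7 rose and 1 fell at 10 µM (median 0.66), and 8 rose and 0 fell at 5 µM (median 0.51), against the same shares of all genes tested. Between the doses 1 of the 9 was higher and 2 were lower, against 8 and 1 of the 10 class I chains. H2-Ab1, a class II chain, was at 121 and 132 FPKM at 10 µM and 115 and 125 at 5 µM, and did not pass between the doses (log2 change 0.07, limma adjusted p = 0.481). Of 8 tested genes for class I receptors, related myeloid receptors and signalling partners 2 rose and 2 fell at 10 µM. That share is near the 50.5% of all genes tested that were called. Pira2, an activating receptor gene (log2 change 0.90, limma adjusted p = 0.000941), and Lilrb4a, an inhibitory one (0.72, limma adjusted p = 0.000504), rose. Pirb, which encodes an inhibitory class I receptor, did not pass (0.16, limma adjusted p = 0.302). Tyrobp, which encodes the adaptor DAP12 (-0.47, limma adjusted p = 0.00658), and Ptpn11, which encodes the phosphatase SHP-2 (-0.27, limma adjusted p = 0.00818), fell.

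**Figure D5:**
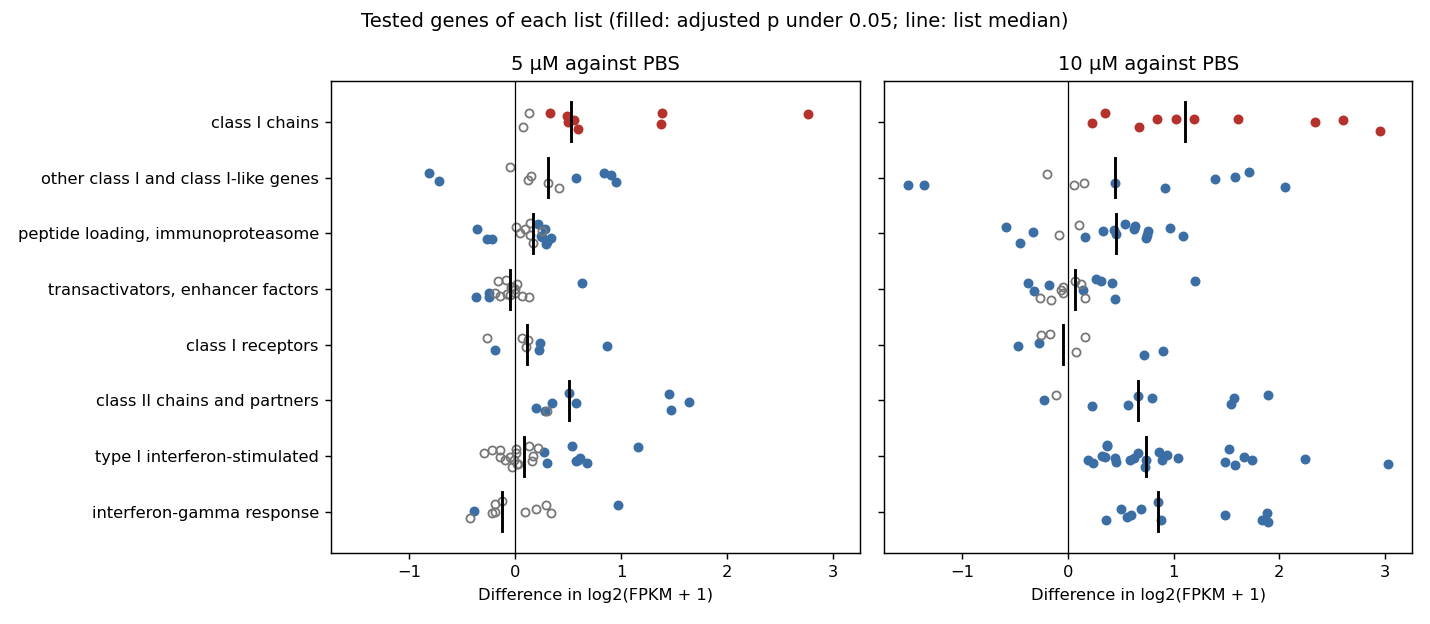
Difference in log2(FPKM + 1) (x axis) of each tested gene in the class I chains and 7 related lists, for 5 µM against PBS on the left and 10 µM against PBS on the right, with filled points for genes called, open points for the rest and a line at the list median. The class I chains have a median of 0.53 at 5 µM and 1.10 at 10 µM, while the type I interferon-stimulated list has 0.08 and 0.74.

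Genes with profiles most like those of 4 members were named by the smallest Euclidean distance between log2(FPKM + 1) values centred on each gene's mean over the 6 samples. For H2-M2 they were Anpep, which encodes aminopeptidase N (distance 0.784), Cst7, which encodes cystatin F (1.01), and F10, which encodes coagulation factor X (1.04). None lay close, and the nearest other class I chain to H2-M2 was H2-Q7 at 1.78. For H2-Q7 they were Soat2 (0.236), Ddit3 (0.287) and Ccrl2 (0.328), all nearer than H2-Q6 at 0.422. For H2-K1 they were Rmdn3 (0.0542), Tprkb (0.0595) and the tapasin gene Tapbp (0.0705), and H2-D1 lay at 0.194. For B2m they were Akap1 (0.0357), Sys1 (0.0389) and Rnls (0.0445). Over 6 samples in 3 groups many genes share such a profile, so the likeness is a description.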

How the data were processed

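Expression had been measured by RNA sequencing of total RNA extracted with TRIzol, in 6 samples. The authors deposited FPKM in 1 table with a column per sample, a unit taken from that table's name and values. Alignment was with HISAT2 to GRCm38, per the submitters' processing notes. Not given in the sources used here are the counting tool, annotation, read length, use of strand and filters. The names of all value columns begin with DXM, letters left unexplained by the labels, so whether they stand for something the groups share is not known, and the rest of each name matched the title of 1 sample.

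Exon lengths and positions came from GENCODE M21 (GRCm38), which matched 54409 of 54446 entries. FPKM times exon length came in whole steps, which gave the library totals and fragments: 98.85% to 98.98% of the values of up to 20 fragments were whole within 0.1. For a transcript of 1000 bases, 1 fragment equals 0.0353 to 0.0415 FPKM.

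limma 3.58.1 under R 4.3.3 modelled log2(FPKM + 1) of 12722 genes (eBayes with intensity trend, group as the factor, all 6 samples, 3 residual and 2.72 prior degrees of freedom), and tested two-sided. A pseudocount of 1 FPKM makes the change of low genes smaller. The script was tested on simulated data. Alternatives were pseudocount 0.1, no filter or a filter of 5 FPKM, median-of-ratios scaling, quantile normalization, no trend, only the groups compared, a replicate block, voom on recovered fragments, and each sample left out. Errors after a log2 change are standard errors. Promoter windows are RefSeq sequences of GRCm38.p6, and 10 of 10 genes matched by symbol. Coding sequences were aligned with Biopython 1.88.

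The members, the 7 lists, 6 marker lists and the tests were chosen with earlier results of these data known, and no list has a test of its own. Named genes were the members, up to 4 tested genes of each list with the smallest unadjusted p at 10 µM against PBS, a few fixed factors, and the 3 nearest profiles of 4 members, and the text gives part of them. Pdia3, Ganab and Uggt1 were named after their values were seen, as were the antisense genes, H2-T10, Pirb, Lyz2, Cd68, Csf1r and Cd79b.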

Additional observations from a re-analysis of the deposited data

Results flagged for a closer look

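H2-M2 was singled out because its effect differed between the dose steps. The step between 5 µM and 10 µM minus the step between PBS and 5 µM was -3.21 ± 0.17 on the log2 scale (limma adjusted p = 0.0046), with both 5 µM samples above both 10 µM samples and all 4 above the PBS samples. Groups of 2 samples are too small for a test of single samples that stand apart.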

How the results depend on the processing

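At 10 µM against PBS the count of class I chains called was 9 or 10 under every alternative, with B2m the 1 that was lost, and at 5 µM against PBS it was 6 to 8. Between the doses it was 6 to 9 with all samples, and 5 to 8 when samples were left out in turn, 5 being the count without 5 µM replicate 1 and also without 5 µM replicate 2. The count for the difference between the dose steps was 1, or 0 to 1 with a sample left out, and 2 with voom on recovered fragments, where H2-Q4 joined H2-M2. The single change of direction was B2m at 5 µM with quantile normalization (log2 change -0.08), a value that did not pass in either setting. The causes were not tested. With the replicate number as a replicate block the counts were 9 at 10 µM, 8 at 5 µM, 8 between the doses and 1 for the dose steps, with B2m lost at 10 µM (adjusted p = 0.123) and H2-D1 between the doses (0.0551). Deviations of samples with the same number correlated at -0.055 to 0.0373, so the numbers share no measured deviation. Fits that leave out a sample assume that the lone sample of its group varies like the others. With H2-M2 resting on 140 recovered fragments in a PBS sample, its fold change is the least precise of the 10.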
